A study of Mus musculus with 24 samples.

Results

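The Hedgehog pathway was followed through 9 genes in basal cells of the mouse mammary gland: the ligands Shh, Ihh and Dhh, the receptor Ptch1, the ligand-binding inhibitor Hhip, the signal transducer Smo, and the transcription factors Gli1, Gli2 and Gli3. They were taken by mouse symbol from the 27080 Entrez genes counted, and all 9 were found. The 9 were chosen by name, with the H3K27me3 and H3K4me3 values of these 16 libraries already examined. Their p-values, adjusted over all genes, therefore place them among the other genes and give no independent support.

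Basal cells came from mammary glands of untreated C57BL/6 females and were sorted by flow cytometry on Lgr5, a receptor for R-spondins, and Tspan8, a membrane tetraspanin. The 4 subpopulations were Lgr5+Tspan8hi, Lgr5+Tspan8-, Lgr5-Tspan8hi and Lgr5-Tspan8-, with no genotype or agent that differed between them. Each had 2 chromatin immunoprecipitation libraries for H3K4me3, which marks gene starts that are active or poised, and 2 for H3K27me3, the mark placed by Polycomb repressive complex 2. Age, the number of animals and any pooling were not given in the labels, and nothing says that replicates came from separate animals, so p-values measure the spread between these libraries, which may be technical. These are bulk samples, in which fewer cells carrying a mark and less of the mark per cell cannot be told apart.

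Total counts ran from 1472251 to 4740371 for H3K4me3 and from 2639862 to 6972189 for H3K27me3. Replicate 1 of Lgr5-Tspan8hi stood apart, with 5844 genes at 0 for H3K4me3 (662 to 3007 elsewhere) and 4191 for H3K27me3 (1121 to 1557 elsewhere). As a check of the sort, the 10 basal and myoepithelial marker genes had a median H3K4me3 percentile of 91.5 among 25189 genes. Trp63, a defining factor of basal cells, was however at percentile 21.6. The region counted for H3K4me3 is not given, so a Trp63 start used in these cells may lie outside it. The median was 56.6 for 10 luminal markers, 51.8 for 12 fibroblast markers, 39.2 for 6 endothelial, 21.2 for 6 immune and 76.6 for 4 Schwann and neural markers.

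Hedgehog ligands are secreted lipid-modified proteins. Without ligand, Ptch1 holds Smo inactive, and Gli2 and Gli3 are kept from activating genes, Gli3 mainly as a cleaved repressor. Ligand binding to Ptch1 frees Smo, Gli2 becomes the main first activator, and Gli1, Ptch1 and Hhip are themselves induced, so that Gli1 is read as an output and Ptch1 and Hhip as feedback inhibitors. In the embryonic mammary bud, repression by Gli3 keeps the pathway off. Developmental genes of this kind are frequent Polycomb targets in tissues where they are silent.

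The start regions of 4 of the genes are shown because they span the range of H3K4me3 among them: Gli2, where H3K27me3 differed between subpopulations, Gli3, Ptch1, the gene with the highest H3K4me3 of the 9, and Dhh, the gene with the lowest. Each run holds 250 bases before and 50 bases after a RefSeq transcript start in GRCm38.p6, read 5′ to 3′ on the gene's strand, with capitals marking every CG dinucleotide. The windows are chr1:119053570-119053869 (minus strand) for Gli2, chr13:15463473-15463772 (plus) for Gli3, chr13:63565686-63565985 (minus) for Ptch1 and chr15:98898491-98898790 (minus) for Dhh. The Ptch1 and Gli2 windows lie inside the annotated gene, at a start downstream of its outermost end.
Gli2: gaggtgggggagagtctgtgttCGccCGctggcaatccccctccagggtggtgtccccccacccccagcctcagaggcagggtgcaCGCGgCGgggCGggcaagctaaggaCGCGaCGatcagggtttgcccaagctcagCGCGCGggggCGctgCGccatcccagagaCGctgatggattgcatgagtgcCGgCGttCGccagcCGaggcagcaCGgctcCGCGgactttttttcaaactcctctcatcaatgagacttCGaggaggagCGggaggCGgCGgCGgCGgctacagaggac
Gli3: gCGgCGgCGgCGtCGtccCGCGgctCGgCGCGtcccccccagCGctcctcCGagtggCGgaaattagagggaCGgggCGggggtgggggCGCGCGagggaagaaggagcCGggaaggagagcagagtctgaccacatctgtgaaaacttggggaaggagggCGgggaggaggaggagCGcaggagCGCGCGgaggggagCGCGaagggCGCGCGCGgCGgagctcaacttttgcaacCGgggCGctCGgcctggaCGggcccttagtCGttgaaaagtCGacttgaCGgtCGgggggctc
Ptch1: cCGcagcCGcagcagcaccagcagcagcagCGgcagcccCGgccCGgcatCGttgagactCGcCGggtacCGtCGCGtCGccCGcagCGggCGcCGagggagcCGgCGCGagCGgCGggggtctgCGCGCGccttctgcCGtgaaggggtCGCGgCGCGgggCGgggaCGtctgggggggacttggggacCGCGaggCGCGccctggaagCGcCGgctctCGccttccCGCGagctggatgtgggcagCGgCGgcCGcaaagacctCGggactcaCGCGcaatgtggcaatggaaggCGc
Dhh: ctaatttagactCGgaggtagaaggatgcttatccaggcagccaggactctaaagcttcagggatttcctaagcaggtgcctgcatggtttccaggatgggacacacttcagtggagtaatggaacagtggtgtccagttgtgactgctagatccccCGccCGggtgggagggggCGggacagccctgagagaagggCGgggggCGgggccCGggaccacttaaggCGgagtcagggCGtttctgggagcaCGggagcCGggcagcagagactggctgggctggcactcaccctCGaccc
These windows held 28 CG dinucleotides for Gli2, 39 for Gli3, 47 for Ptch1 and 12 for Dhh. RefSeq start windows were matched for 7 of the 9 genes, and the others had 30 for Ihh, 30 for Hhip and 17 for Smo. All 7 were above the median of 7 over 32851 mouse start windows. A GLI-type motif, GACCACCCA on either strand, was in 0 of the 7 windows and in 0.253% of all windows. Ptch1 and Gli3 led the 7 both in CG dinucleotides and in H3K4me3, and Dhh was last in both, whereas Smo had few CG dinucleotides and high H3K4me3. The region counted for H3K4me3 is not given, so at Ptch1 and Gli2 the window and the count may belong to different starts.

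The genes sat at different places on the scales of the marks. H3K4me3 was set as CPM (read counts scaled to library size) at the gene start, because 1670 pairs of genes with starts less than 1 kb apart had a median count ratio of 1.01, which is how counts in a window around a start behave. H3K27me3 counts grew with gene length and were set as CPM per kb of gene span. Ptch1 had 208 CPM of H3K4me3, at percentile 99.9 of 25189 genes, and 0.211 CPM per kb of H3K27me3, at percentile 12.9. These are ranks of the mean over libraries, and in single libraries Ptch1 was at percentiles 14.2 to 28.2 for H3K27me3. Gli3 (H3K4me3 percentile 94.9, H3K27me3 percentile 36.7) and Smo (90.8 and 33.8) lay in the same corner. At the other end, Shh had 8.83 CPM per kb of H3K27me3, at percentile 98.4, with H3K4me3 at percentile 49.0. Ihh was close to it, with 8.45 CPM per kb of H3K27me3 at percentile 98.3 and H3K4me3 at percentile 53.5. Gli1 and Gli2 ranked above the middle for both marks: Gli1 at percentile 76.8 for H3K4me3 and 91.9 for H3K27me3, Gli2 at 74.3 and 73.9. Hhip was at percentile 47.2 for H3K4me3 and 82.3 for H3K27me3, and Dhh at 45.0 and 59.5. The 3 ligand genes thus lay between percentiles 45.0 and 53.5 for H3K4me3, and Ptch1, Smo and Gli3 at 90.8 or above. These ranks depend on the window assumed. With 2 kb added to each gene, Ptch1 moved to percentile 22.1 for H3K27me3, and with H3K4me3 divided by gene length Gli2, Gli3 and Hhip moved to percentiles 24.6, 29.8 and 22.1. On that scale Ihh (79.5) ranked above Smo (73.7) and Ptch1 (70.4), with Shh at 65.0, so the order of ligand and receptor genes in H3K4me3 held only for levels at the gene start.

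**Figure D1:**
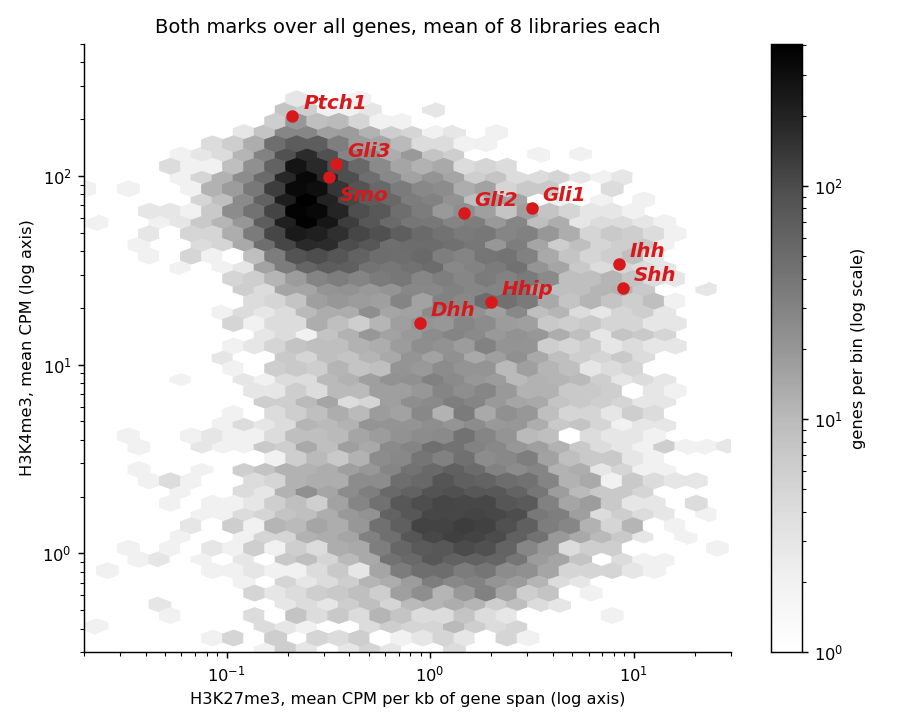
Mean H3K4me3 (CPM, log axis) against mean H3K27me3 (CPM per kb of gene span, log axis) over 8 libraries each. Grey bins hold all genes above 0 in both marks and red points the 9 Hedgehog genes. Ptch1, Gli3 and Smo sit in the dense upper left group, and Shh and Ihh at the right edge, at percentiles 98.4 and 98.3 of H3K27me3.

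The first question was whether the repressive mark on these genes differs with Lgr5 and Tspan8. H3K27me3 was lower in Tspan8hi than in Tspan8- cells at Gli2, the main activator, and at Gli1, the output gene, and it was lower in Lgr5+ than in Lgr5- cells at Gli2. Gli2 carried 2.03 times as much of the mark in Lgr5-Tspan8- as in Lgr5+Tspan8hi cells, and Gli1 1.98 times as much in the same pair. At the other 7 genes no difference passed with edgeR. At Gli3 all 4 Tspan8hi libraries lay above all 4 Tspan8- libraries, and the share of all genes separated in this way was not counted. The Gli3 difference missed with edgeR and passed with DESeq2, which called more genes. By Tspan8, DESeq2 called 94 genes higher and 386 lower, against 21 and 53 with edgeR.

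In a test for any difference among the 4 subpopulations, 2 of the 9 genes passed (edgeR quasi-likelihood test, adjusted p under 0.05), against 0.529% of the 22099 genes tested. For Tspan8hi minus Tspan8-, 2 of 9 passed, both lower, against 0.335% of genes, of which 21 were higher and 53 lower. That split of all genes turned with the scaling, to 36 higher and 28 lower with library totals alone and to 53 and 40 with loess offsets, while Gli2 and Gli1 were lower under each. For Lgr5+ minus Lgr5-, 1 of 9 passed, lower, against 0.0407% of genes. For the interaction, which asks whether the Tspan8 difference itself differs with Lgr5, 0 of 9 passed with edgeR, DESeq2 or limma-voom, 1 had an unadjusted p under 0.05 (Dhh), and 0.00905% of genes passed. The Tspan8 difference was below 0 at 7 of the 9 genes, with a median log2 difference of -0.22, beside 47.3% of all genes and a median of 0.02. The Lgr5 difference was also below 0 at 7 of 9, with a median of -0.25, beside 50.9% of all genes and a median of -0.01. With loess offsets set per kb, chosen after seeing the data, 8 of 9 were below 0 by Tspan8, with a median of -0.10, and 7 of 9 by Lgr5, with a median of -0.06.

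Among the Gli factors, Gli2 (chr1:118834061-119054405, minus strand, a span of 220.3 kb) had the clearest differences. H3K27me3 at Gli2 was 218 and 205 CPM for Lgr5+Tspan8hi, 319 and 342 for Lgr5+Tspan8-, 299 and 338 for Lgr5-Tspan8hi, and 393 and 467 for Lgr5-Tspan8-. Lgr5+Tspan8hi was lowest and Lgr5-Tspan8- highest, each clear of all other libraries, and the libraries with only 1 of the sorting markers overlapped between them. By Tspan8 the level was 265 ± 63.9 CPM (SD, n = 4) in Tspan8hi and 380.2 ± 65.5 (SD, n = 4) in Tspan8- libraries, a log2 difference of -0.54 ± 0.09 (SE, edgeR adjusted p = 0.00442). By Lgr5 it was 271 ± 69.5 CPM in Lgr5+ and 374 ± 72.6 in Lgr5- libraries (SD, n = 4 each), a log2 difference of -0.49 ± 0.09 (SE, edgeR adjusted p = 0.0368). In both comparisons the ranges of the sides overlapped. The interaction was -0.21 ± 0.18 on the log2 scale (edgeR adjusted p = 0.989). The test for any difference gave an edgeR adjusted p of 0.00103, which stayed under 0.05 in all 17 alternatives (1.01e-09 to 0.0252).

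Single libraries mattered more for the separate effects of Gli2. Its Tspan8 difference passed in 16 of 17 alternatives and missed without Lgr5+Tspan8- replicate 2 (edgeR adjusted p = 0.0606). Its Lgr5 difference passed in 10 of 17, with log2 values from -0.56 to -0.41. It missed without Lgr5+Tspan8hi replicate 1 (edgeR adjusted p = 0.100) or 2 (0.301), Lgr5+Tspan8- replicate 1 (0.521) or 2 (0.252), Lgr5-Tspan8hi replicate 2 (0.0516) or Lgr5-Tspan8- replicate 2 (0.0810), and with a minimum mean of 5 CPM (0.0502). Without Lgr5-Tspan8hi replicate 1, the library with the most genes at 0, both differences passed (edgeR adjusted p = 0.0406 by Tspan8 and 0.0468 by Lgr5).

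H3K27me3 at Gli1 (chr10:127329882-127341579, minus strand, 11.7 kb) was 30.7 and 23.6 CPM for Lgr5+Tspan8hi, 34.4 and 40.8 for Lgr5+Tspan8-, 26.3 and 32.5 for Lgr5-Tspan8hi, and 51.2 and 56.3 for Lgr5-Tspan8-. All 4 Tspan8hi libraries lay under all 4 Tspan8- libraries, and Lgr5-Tspan8- was highest. The level was 28.3 ± 4.04 CPM in Tspan8hi and 45.7 ± 9.88 in Tspan8- libraries (SD, n = 4 each), 1.62 times as high in Tspan8-, with a log2 difference of -0.66 ± 0.15 (SE, edgeR adjusted p = 0.0494). The Lgr5 difference was -0.32 ± 0.15 (SE, edgeR adjusted p = 0.683) and the interaction 0.38 ± 0.30 (SE, edgeR adjusted p = 0.984). Gli1 was near the threshold: its Tspan8 difference passed in 8 of 17 alternatives, with log2 values from -0.77 to -0.48. It missed without Lgr5+Tspan8hi replicate 1 (edgeR adjusted p = 0.0976) or 2 (0.157), Lgr5+Tspan8- replicate 1 (0.142) or 2 (0.311), Lgr5-Tspan8hi replicate 1 (0.118) or Lgr5-Tspan8- replicate 2 (0.169). It also missed with library totals alone (0.0847), a minimum mean of 5 CPM (0.0521) and loess offsets set per kb (0.159), the last chosen after seeing the data. The test for any difference at Gli1 gave an edgeR adjusted p of 0.0495 and passed in 8 of 17 alternatives (0.00394 to 0.267). It missed without Lgr5+Tspan8hi replicate 1 (0.0910) or 2 (0.161), Lgr5+Tspan8- replicate 1 (0.125) or 2 (0.117) or Lgr5-Tspan8- replicate 2 (0.267), with library totals alone (0.0833), loess offsets (0.0550), the 5 CPM minimum (0.0554) and loess offsets per kb (0.164). Gli1 shares 66 bp with Arhgap9, and reads there cannot be told apart.

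H3K27me3 at Gli3 (chr13:15463723-15730026, plus strand, 266.3 kb) was 119 and 105 CPM for Lgr5+Tspan8hi, 88.1 and 68.5 for Lgr5+Tspan8-, 103 and 93.8 for Lgr5-Tspan8hi, and 93.3 and 63.8 for Lgr5-Tspan8-. Here the 4 Tspan8hi libraries lay above the 4 Tspan8- libraries, opposite to Gli1 and Gli2, by a narrow margin between the nearest. The level was 105 ± 10.3 CPM in Tspan8hi and 78.4 ± 14.5 in Tspan8- libraries (SD, n = 4 each), a log2 difference of 0.42 ± 0.13 (SE, edgeR adjusted p = 0.135). The difference passed in 3 of 17 alternatives, which were a replicate block, DESeq2 (adjusted p = 0.0439) and the fit without Lgr5-Tspan8- replicate 1. Without that library the test for any difference passed too. All 3 settings called more genes by Tspan8 than the main fit. The Lgr5 difference was 0.10 ± 0.13 (SE, edgeR adjusted p = 0.923).

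**Figure D2:**
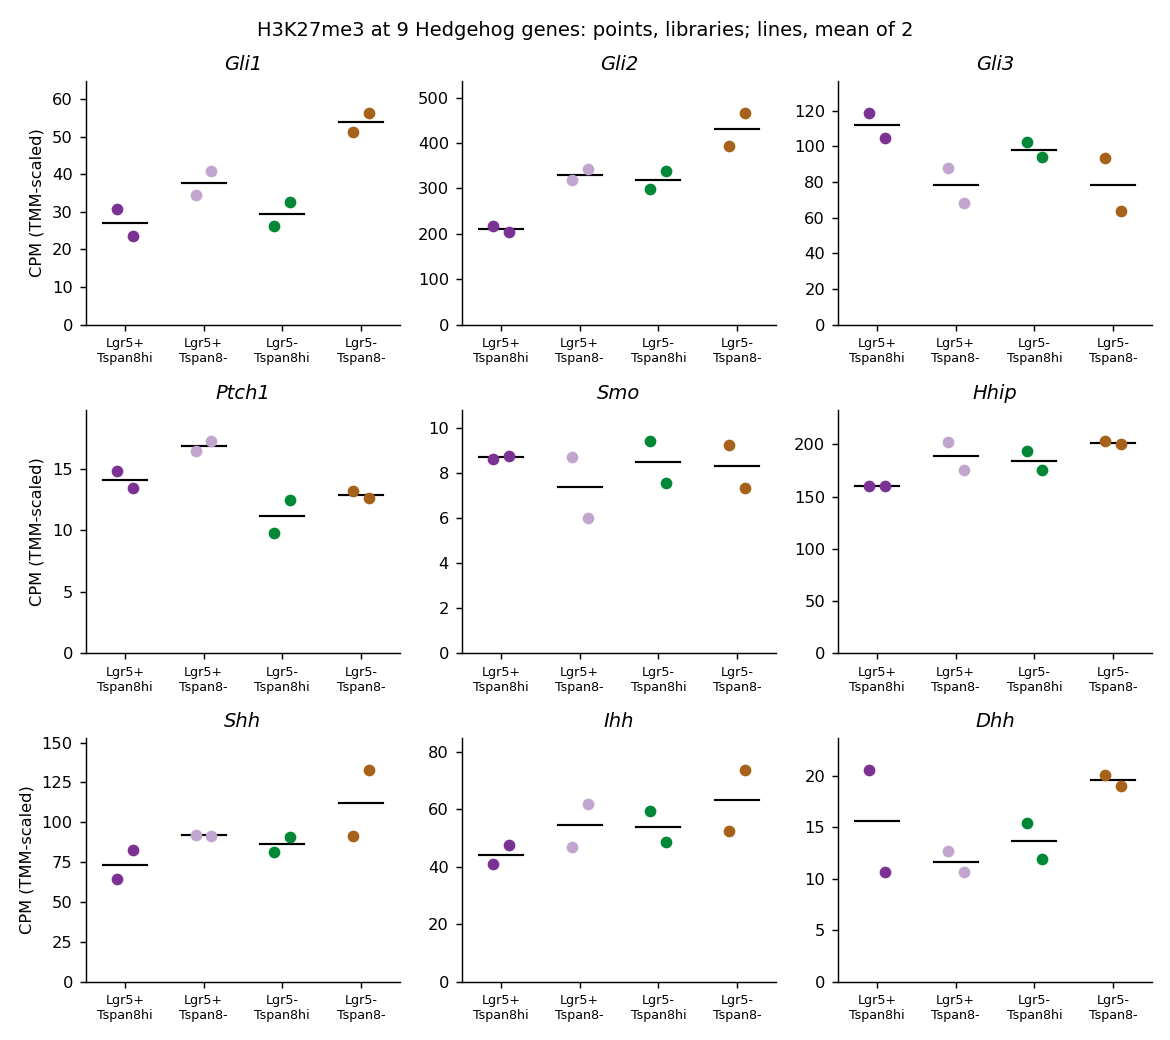
H3K27me3 level (CPM, TMM-scaled, axis from 0) at each of the 9 genes. Each point is 1 library, coloured by subpopulation, and each line the mean of 2 libraries. At Gli2 and Gli1 the Lgr5-Tspan8- libraries are the highest, and at Gli3 the Tspan8hi libraries (93.8 to 119 CPM) lie above the Tspan8- libraries (63.8 to 93.3 CPM).

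The 3 ligand genes carried different amounts of the mark, and no difference between subpopulations passed the test. H3K27me3 at Shh, the ligand best known from limb and neural tube (chr5:28456840-28467101, minus strand, 10.3 kb), was 64.2 and 82.5 CPM for Lgr5+Tspan8hi, 92.1 and 91.7 for Lgr5+Tspan8-, 81.5 and 90.7 for Lgr5-Tspan8hi, and 91.5 and 133 for Lgr5-Tspan8-. The 4 Tspan8hi libraries lay under the 4 Tspan8- libraries, by a small gap between the nearest, and replicate 2 of Lgr5-Tspan8- was highest. The level was 79.7 ± 11.2 CPM in Tspan8hi and 102 ± 20.6 in Tspan8- libraries (SD, n = 4 each), a log2 difference of -0.35 ± 0.13 (SE, edgeR adjusted p = 0.209). The Tspan8 difference passed with a replicate block and without Lgr5-Tspan8- replicate 1, and with loess offsets per kb it was -0.10. Without that library the test for any difference passed too. Both settings called more genes by Tspan8 than the main fit, the block 176 higher and 505 lower against 21 and 53. The Lgr5 difference was -0.27 ± 0.12 (SE, edgeR adjusted p = 0.686). Shh shares 118 bp at its start with 9530036O11Rik, a transcript of the opposite strand.

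H3K27me3 at Ihh, the ligand known from cartilage and gut (chr1:74945315-74951672, minus strand, 6.36 kb), was 41.0 and 47.5 CPM for Lgr5+Tspan8hi, 46.7 and 61.9 for Lgr5+Tspan8-, 59.3 and 48.5 for Lgr5-Tspan8hi, and 52.3 and 73.7 for Lgr5-Tspan8-. The order of the means was that of Gli2, and neighbours in that order overlapped except Lgr5-Tspan8hi and Lgr5+Tspan8hi, the lowest. The Tspan8 difference was -0.27 on the log2 scale (edgeR adjusted p = 0.435). H3K27me3 at Dhh, the ligand known from testis and peripheral nerve (chr15:98881615-98898562, minus strand, 16.9 kb), was 20.6 and 10.6 CPM for Lgr5+Tspan8hi, 12.7 and 10.6 for Lgr5+Tspan8-, 15.4 and 11.9 for Lgr5-Tspan8hi, and 20.1 and 19.0 for Lgr5-Tspan8-. The replicates of Lgr5+Tspan8hi were the highest and the lowest of the 8 libraries. The interaction at Dhh was 0.97 ± 0.44 (SE, unadjusted p = 0.0372, edgeR adjusted p = 0.883).

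At the inhibitor, the receptor and the transducer no H3K27me3 difference passed. H3K27me3 at Hhip, which binds the ligands at the cell surface and takes them from Ptch1 (chr8:79965850-80058060, minus strand, 92.2 kb), was 159.8 and 160.3 CPM for Lgr5+Tspan8hi, 202 and 176 for Lgr5+Tspan8-, 194 and 175 for Lgr5-Tspan8hi, and 203 and 201 for Lgr5-Tspan8-. Lgr5+Tspan8hi was below every other library, and neighbours among the other subpopulations overlapped. The Tspan8 difference was -0.19 ± 0.09 (SE, edgeR adjusted p = 0.414) and the Lgr5 difference -0.15 ± 0.09 (SE, edgeR adjusted p = 0.806). H3K27me3 at Ptch1 (chr13:63508328-63573460, minus strand, 65.1 kb) was 14.8 and 13.4 CPM for Lgr5+Tspan8hi, 16.4 and 17.2 for Lgr5+Tspan8-, 9.77 and 12.5 for Lgr5-Tspan8hi, and 13.1 and 12.6 for Lgr5-Tspan8-. The 4 Lgr5+ libraries lay above the 4 Lgr5- libraries, at 15.5 ± 1.71 against 11.99 ± 1.51 CPM (SD, n = 4 each), a log2 difference of 0.35 ± 0.20 (SE, edgeR adjusted p = 0.782). H3K27me3 at Smo, the membrane protein that Ptch1 restrains (chr6:29735497-29761366, plus strand, 25.9 kb), was 8.62 and 8.75 CPM for Lgr5+Tspan8hi, 8.71 and 5.99 for Lgr5+Tspan8-, 9.39 and 7.55 for Lgr5-Tspan8hi, and 9.22 and 7.34 for Lgr5-Tspan8-. All 4 subpopulations overlapped at Smo, and both differences were within 1 SE of 0.

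Values at markers of other cell types stand beside these differences. The summed H3K4me3 of the 12 fibroblast markers was 298 to 382 CPM in the 4 Tspan8hi libraries and 387 to 452 CPM in the 4 Tspan8- libraries, without overlap. The Tspan8 difference was below 0 at 9 of the 12, beside 50.4% of all genes, with a median log2 difference of -0.29 and 0 of 12 passing with edgeR, DESeq2 or limma-voom (5 had an unadjusted edgeR p under 0.05, beside 5.90% of all genes). By Lgr5, only Dcn, a proteoglycan of connective tissue, passed, at -1.52 ± 0.24 (SE, edgeR adjusted p = 0.000146). The Lgr5 difference was below 0 at 7 of the 12, beside 49.2% of all genes, with a median log2 difference of -0.04. Their summed H3K4me3 overlapped by Lgr5, at 307 to 404 CPM in Lgr5+ and 298 to 452 CPM in Lgr5- libraries. None of the 12 was at 0 in every library: the lowest mean was 3.79 CPM, at Dpt, and Col3a1 was at 0 in 1 library. Their summed H3K27me3 overlapped, at 480 to 543 CPM in Tspan8hi and 465 to 503 in Tspan8- libraries. The H3K4me3 difference by Tspan8 at the basal markers was below 0 at 7 of the 9 tested, with a median log2 difference of -0.10, and was lowest at Tagln, an actin-binding protein (-0.50 ± 0.13, SE, edgeR adjusted p = 0.151). H3K27me3 at the 10 basal markers had a Tspan8 difference above 0 at 8 of 10, with a median of 0.31, and summed to 239 to 365 CPM in Tspan8hi against 193 to 314 CPM in Tspan8- libraries. Mylk, a myosin kinase among the basal markers, passed the H3K27me3 test for any difference (edgeR adjusted p = 0.0327). The other lists did not move in H3K4me3 as the fibroblast markers did. The Tspan8 difference was below 0 at 4 of 9 luminal markers tested, with a median of 0.04, and at 1 of 5 endothelial markers, with a median of 0.39. It was below 0 at 1 of 3 Schwann and neural markers, with a median of 0.08, and only 1 immune marker was tested. The summed H3K4me3 of each of these lists overlapped between Tspan8hi and Tspan8- libraries. The part of other cells in the differences at Gli1 and Gli2 was not tested.

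**Figure D3:**
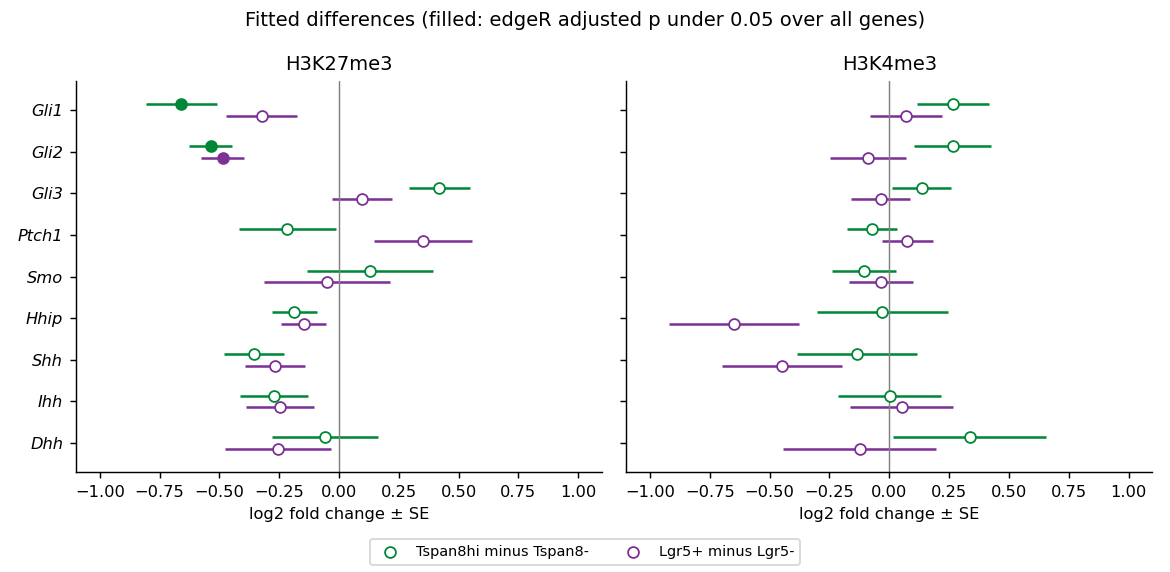
Fitted log2 differences (horizontal axis, ± SE) at the 9 genes for H3K27me3 (left) and H3K4me3 (right), by Tspan8 (green) and by Lgr5 (purple). Filled points passed at an edgeR adjusted p under 0.05 over all genes: Gli1 (-0.66) and Gli2 (-0.54) by Tspan8 and Gli2 (-0.49) by Lgr5, all for H3K27me3.

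The second question was whether H3K4me3 at the starts of the genes differs in the same way. It did not pass for any of the 9 genes in any of the 4 tests, with edgeR adjusted p-values from 0.861 to 1.0, and DESeq2 and limma-voom also called 0 of 9. The background was low too: 0.0894% of 19009 genes passed the test for any difference, 0.0473% passed for Tspan8, 0.0421% for Lgr5 and 0% for the interaction, where 800 genes had an unadjusted p under 0.05, DESeq2 called 0 and limma-voom 2. Of the 9 genes, Hhip alone had an unadjusted p under 0.05, by Lgr5. The Tspan8 difference was below 0 at 4 of 9 genes, with a median log2 difference of 0.00, and the Lgr5 difference at 6 of 9, with a median of -0.04.

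H3K4me3 at Gli2 was 75.8 and 64.4 CPM for Lgr5+Tspan8hi, 64.6 and 42.7 for Lgr5+Tspan8-, 57.3 and 82.3 for Lgr5-Tspan8hi, and 54.2 and 67.9 for Lgr5-Tspan8-. H3K4me3 at Gli1 was 66.5 and 74.3 CPM for Lgr5+Tspan8hi, 61.3 and 73.2 for Lgr5+Tspan8-, 83.0 and 70.2 for Lgr5-Tspan8hi, and 54.8 and 56.8 for Lgr5-Tspan8-. At both genes the means were higher on the Tspan8hi side, where H3K27me3 was lower, but the libraries overlapped. The Tspan8 difference was 0.27 ± 0.15 at Gli1 (SE, edgeR adjusted p = 0.861) and 0.26 ± 0.16 at Gli2 (SE, edgeR adjusted p = 0.872). H3K4me3 at Gli3 was 103 and 136 CPM for Lgr5+Tspan8hi, 114 and 104 for Lgr5+Tspan8-, 131 and 116 for Lgr5-Tspan8hi, and 95.8 and 124 for Lgr5-Tspan8-. Its 4 subpopulation means ran from 109 to 123 CPM with overlapping libraries.

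The receptor had the steadiest H3K4me3. H3K4me3 at Ptch1 was 199 and 224 CPM for Lgr5+Tspan8hi, 208 and 222 for Lgr5+Tspan8-, 205 and 184 for Lgr5-Tspan8hi, and 202 and 219.7 for Lgr5-Tspan8-, and its highest mean was 1.11 times its lowest. H3K4me3 at Smo was 66.5 and 105 CPM for Lgr5+Tspan8hi, 110.4 and 106 for Lgr5+Tspan8-, 123 and 83.8 for Lgr5-Tspan8hi, and 97.5 and 94.0 for Lgr5-Tspan8-. At Smo the spread between replicates of Tspan8hi cells was wider than that between subpopulation means. H3K4me3 at Hhip was 13.1 and 22.3 CPM for Lgr5+Tspan8hi, 15.9 and 15.6 for Lgr5+Tspan8-, 27.95 and 20.7 for Lgr5-Tspan8hi, and 23.7 and 32.8 for Lgr5-Tspan8-. Lgr5- libraries were mostly higher, with 1 Lgr5+ library above the lowest of them. The level was 16.7 ± 3.91 CPM in Lgr5+ and 26.3 ± 5.28 in Lgr5- libraries (SD, n = 4 each), a log2 difference of -0.65 ± 0.27 (SE, unadjusted p = 0.0193, edgeR adjusted p = 0.926).

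H3K4me3 at the ligand genes lay near the middle of all genes, and no difference passed. H3K4me3 at Shh was 21.6 and 19.2 CPM for Lgr5+Tspan8hi, 19.1 and 27.1 for Lgr5+Tspan8-, 26.6 and 29.6 for Lgr5-Tspan8hi, and 24.8 and 35.1 for Lgr5-Tspan8-, a log2 difference by Lgr5 of -0.45 ± 0.25 (SE, edgeR adjusted p = 0.971). At Shh both Lgr5+Tspan8hi libraries lay under all 4 Lgr5- libraries, and Lgr5+Tspan8- overlapped with both sides. H3K4me3 at Ihh was 30.1 and 37.4 CPM for Lgr5+Tspan8hi, 33.2 and 39.3 for Lgr5+Tspan8-, 42.8 and 26.9 for Lgr5-Tspan8hi, and 27.1 and 37.0 for Lgr5-Tspan8-. At Ihh the replicates of 1 subpopulation spanned the range of all 8 libraries. H3K4me3 at Dhh was 20.8 and 21.0 CPM for Lgr5+Tspan8hi, 12.3 and 10.8 for Lgr5+Tspan8-, 6.31 and 25.3 for Lgr5-Tspan8hi, and 17.9 and 18.2 for Lgr5-Tspan8-. At Dhh, Lgr5+Tspan8hi, Lgr5-Tspan8- and Lgr5+Tspan8- did not overlap with one another, in that order from high to low. The lowest and the highest value at Dhh were the replicates of Lgr5-Tspan8hi, and the lowest was in the library with the most genes at 0.

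**Figure D4:**
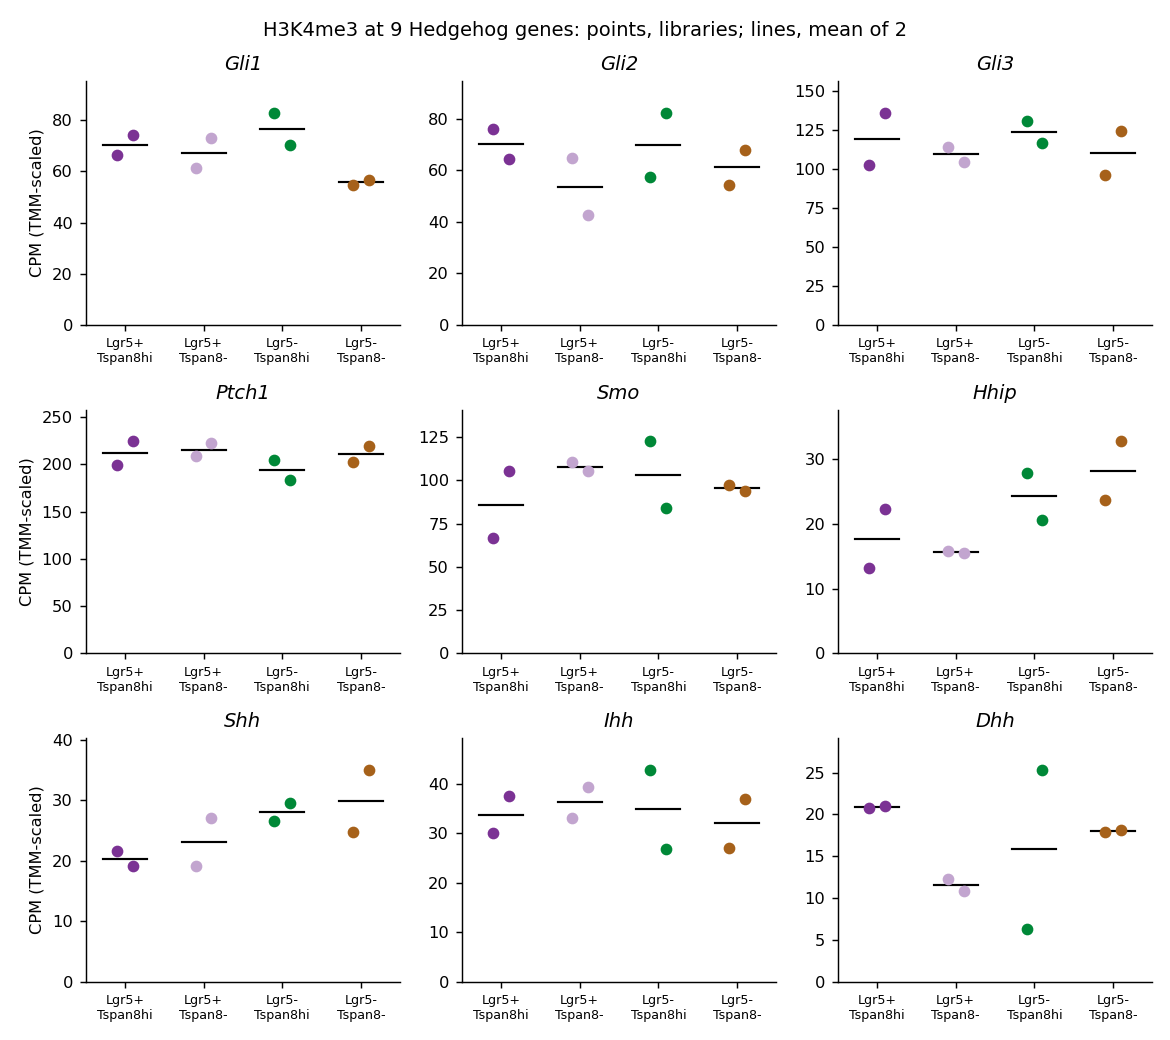
H3K4me3 level (CPM, TMM-scaled, axis from 0) at each of the 9 genes. Each point is 1 library, coloured by subpopulation, and each line the mean of 2 libraries. Ptch1 lies between 184 and 224 CPM in all 8 libraries, while replicates of Lgr5-Tspan8hi are far apart at Dhh (6.31 and 25.3 CPM).

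The rest of the pathway was read from 4 lists with 50 genes: ligand processing and release, co-receptors and ligand-binding proteins, transducers downstream of Smo, and genes known as Hedgehog targets in some tissues. With edgeR, 0 of 50 passed in any of the 4 tests of H3K27me3 and 0 of 49 tested in any of H3K4me3. For H3K27me3, 11 of the 50 had an unadjusted p under 0.05 in the test for any difference, 8 by Tspan8 and 6 by Lgr5, beside 11.1%, 12.9% and 7.19% of all genes. For H3K4me3 the counts were 3, 6 and 5, beside 5.27%, 5.90% and 4.98% of all genes. DESeq2 called 1 gene (Hhat, by Tspan8) and limma-voom 1 (Ccnd2, in the test for any difference and by Tspan8), both for H3K27me3. Of the 22099 genes kept for H3K27me3, DESeq2 called 94 higher and 386 lower by Tspan8, and limma-voom 74 higher and 221 lower. A single list gene called by either tool therefore says little about the pathway. The target list had the most differences on 1 side: 16 of 19 were below 0 by Tspan8, with a median log2 difference in H3K27me3 of -0.20, and 16 of 19 by Lgr5, with a median of -0.20. These counts held with RLE factors, library totals and loess offsets, but with loess offsets per kb 9 of 19 were below 0 by Tspan8 and 8 of 19 by Lgr5, with medians of 0.00 and 0.02. The 6 genes of ligand processing had a median of 0.14 by Tspan8 and 0.00 by Lgr5, the 8 co-receptors 0.09 and 0.09, and the 17 transducers -0.03 and 0.09. Over all genes tested the medians were 0.02 and -0.01.

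The named genes of these lists all came from the targets. H3K27me3 at Ccnd2, a D-type cyclin, was 28.4 and 30.7 CPM for Lgr5+Tspan8hi, 19.8 and 18.9 for Lgr5+Tspan8-, 23.3 and 21.6 for Lgr5-Tspan8hi, and 15.9 and 10.5 for Lgr5-Tspan8-. Its 4 Tspan8hi libraries lay above its 4 Tspan8- libraries, with a log2 difference of 0.69 ± 0.18 (SE, edgeR adjusted p = 0.0830). H3K27me3 at Ccnd1, the other cyclin listed, was 6.96 and 11.7 CPM for Lgr5+Tspan8hi, 6.93 and 9.67 for Lgr5+Tspan8-, 22.2 and 15.6 for Lgr5-Tspan8hi, and 14.1 and 14.4 for Lgr5-Tspan8-. Its 4 Lgr5+ libraries lay under its 4 Lgr5- libraries, with a log2 difference of -0.88 ± 0.24 (SE, edgeR adjusted p = 0.255). At Pax1, a factor of the developing sclerotome, H3K27me3 averaged 72.9 ± 6.10 CPM in Tspan8hi and 93.6 ± 28.7 in Tspan8- libraries (SD, n = 4 each), a log2 difference of -0.34 ± 0.13 (SE, edgeR adjusted p = 0.275). For H3K4me3, Snai1, a factor of epithelial to mesenchymal transition, had the smallest p of the lists: 40.7 and 14.9 CPM for Lgr5+Tspan8hi, 7.21 and 9.49 for Lgr5+Tspan8-, 21.2 and 10.9 for Lgr5-Tspan8hi, and 13.8 and 14.2 for Lgr5-Tspan8- (edgeR adjusted p = 0.670 for any difference). The value of replicate 1 of Lgr5+Tspan8hi lay far above the other 7. Ccnd2 and Ccnd1 followed for H3K4me3, with Tspan8 log2 differences of -0.28 ± 0.12 and -0.18 ± 0.12 (SE, edgeR adjusted p = 0.781 and 0.896).

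**Figure D5:**
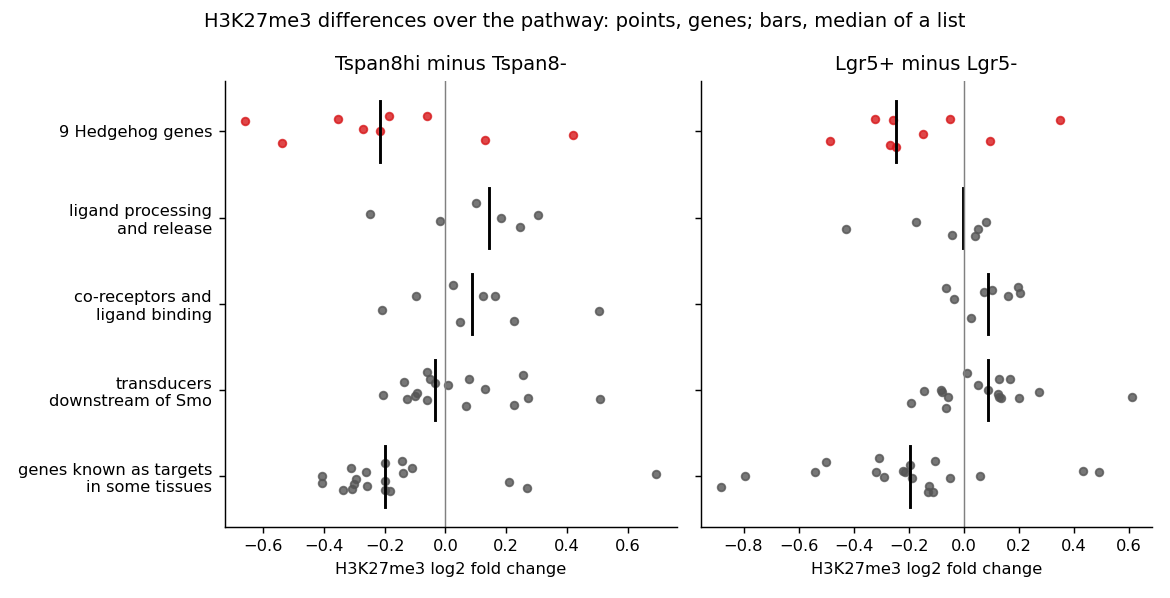
H3K27me3 log2 differences by Tspan8 (left) and by Lgr5 (right) for the 9 Hedgehog genes (red) and 4 lists of pathway genes (grey). Points are genes, spread vertically only to be seen, and black bars are medians. The target list has medians of -0.20 and -0.20, with 16 of its 19 genes below 0 in each panel (9 and 8 with loess offsets per kb).

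Genes elsewhere in the genome followed Gli2 closely in H3K27me3. Over the 8 libraries, the highest Pearson correlations of log2 CPM with Gli2 among 17232 genes were at Shank2 (r = 0.990), a scaffold protein of synapses, Col27a1 (0.980), a fibrillar collagen, and Cfap100 (0.979), a ciliary protein. These points share libraries, depth and the differences between subpopulations, and the genes were picked for their likeness. H3K27me3 at Shank2 averaged 181 CPM for Lgr5+Tspan8hi, 289 for Lgr5+Tspan8-, 263 for Lgr5-Tspan8hi and 376 for Lgr5-Tspan8-. Its Tspan8 difference was -0.60 (edgeR adjusted p = 0.00272) and its Lgr5 difference -0.46 (edgeR adjusted p = 0.0569). At Col27a1 they were -0.41 and -0.44 (edgeR adjusted p = 0.0555 and 0.0840). Cfap100 had smaller differences, -0.22 and -0.23 (edgeR adjusted p = 0.572 and 0.808), despite its high correlation.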

How the data were processed

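Chromatin of the sorted cells was sheared to 200 to 400 bp, per the labels' protocols. For every library the authors deposited raw counts of reads by Entrez gene, made with featureCounts on mm10, per the submitters' processing notes. The sources used here give no aligner, annotation, version or counted region. Of 24 samples, 16 libraries were used, and the 8 inputs were not analysed here. RefSeq (GRCm38.p6) gave a symbol for 25189 of 27080 identifiers and left 1891 without one.

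Each mark was fitted on its 8 libraries with edgeR 4.0.16 in R 4.3.3: filterByExpr, TMM scaling, a mean per subpopulation and a robust quasi-likelihood test, whose p-values were adjusted by Benjamini-Hochberg over 19009 (H3K4me3) or 22099 (H3K27me3) genes. All 9 Hedgehog genes passed the filter in both marks. The 4 residual degrees of freedom make the fits lean on the common spread. The test was also run on simulated counts with the same spread for every gene, which does not cover spread that differs between genes or an outlying library. CPM are TMM-scaled, except the levels that were ranked over genes, which use library totals. The 4 tests of a mark share its libraries.

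The members and lists were chosen with earlier results of these data known. All 9 genes were named. Fitted differences were given for those with an unadjusted p under 0.05 and some others, list genes were named when past an adjusted p of 0.05 or among the 3 smallest p of a mark, and likeness was read for the gene with the smallest p of H3K27me3. That for H3K4me3 is not reported here. Alternatives were DESeq2 1.42.0, limma-voom (limma 3.58.1), scaling by RLE, by library totals alone or by loess offsets, no filter, a mean of at least 5 CPM, a replicate block, each library left out, and, added after seeing the data, loess offsets per kb of gene span.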

Additional observations from a re-analysis of the deposited data

How the results depend on the processing

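The number of genes called depended on the setting. For any H3K27me3 difference they were 407 (DESeq2), 335 (limma-voom), 341 (no filter), 672 (replicate block) and 222 (loess offsets per kb, chosen after seeing the data) against 117. By Tspan8 they were 480, 295, 312, 681 and 153 in the same order against 74. By Lgr5 they were 69, 46, 42, 80 and 68, and 15 with loess offsets, against 9. The H3K27me3 interaction had 6 with DESeq2, 15 with no filter, 13 with the replicate block and 7 with loess offsets per kb, against 2. For H3K4me3, limma-voom gave 30 against 17 for any difference and 2 against 0 for the interaction, and DESeq2 gave 5 against 8 by Lgr5. The cause was not tested. With 1 library left out, the lone library being assumed to vary like the others, H3K27me3 counts ran from 38 to 962 (any difference), 13 to 1230 (Tspan8), 3 to 160 (Lgr5) and 0 to 109 (interaction), and H3K4me3 counts from 3 to 97, 1 to 105, 1 to 13 and 0 to 15. The lowest and highest counts for Tspan8 came without Lgr5+Tspan8- replicate 1 and Lgr5-Tspan8- replicate 1 (H3K27me3) and without Lgr5-Tspan8- replicate 2 and Lgr5-Tspan8hi replicate 2 (H3K4me3).

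In H3K27me3 by Tspan8 and by Lgr5, Gli2 and Gli1 kept their directions under all 17 alternatives. The Lgr5 difference of Gli3 in H3K27me3, 0.10, turned to -0.017 without Lgr5-Tspan8- replicate 2 (range -0.017 to 0.23 over left-out libraries). The labels do not say whether replicate numbers pair the libraries. Correlations of replicate differences between subpopulations ran from 0.01 to 0.20 for H3K4me3 and from 0.02 to 0.23 for H3K27me3. These values were low but all positive, and they cannot show whether replicates of the same number shared a batch. Under the replicate block Gli2 and Gli1 passed the tests they had passed before, and Gli3 and Shh passed by Tspan8 (edgeR adjusted p = 0.0123 and 0.0491), Gli3 also in the test for any difference (0.0382). At Gli3 replicate 1 lay above replicate 2 in all 4 subpopulations.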

Other observations

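H3K27me3 differences by Tspan8 were also read at genes near Gli1, Gli2, Gli3 and Shh. Within 300 kb of Gli2, Clasp1 and Tfcp2l1 had Tspan8 log2 differences of 0.14 ± 0.13 and 0.12 ± 0.13 (SE), beside -0.54 at Gli2, and neither passed (edgeR adjusted p = 0.713 and 0.778). Around Gli1, 25 genes were tested, with a median of -0.02. The overlapping Arhgap9 lay on the side of Gli1, at -0.56 ± 0.15 (SE, edgeR adjusted p = 0.0943) beside -0.66. By Lgr5, Arhgap9 was at -0.53 ± 0.15 (SE, edgeR adjusted p = 0.307) beside -0.32 at Gli1. Around Gli3, 4 genes were tested, with a median of 0.16, and Inhba, a subunit of activin, was highest at 0.40 ± 0.17 (SE, edgeR adjusted p = 0.321). Around Shh, 4 genes were tested, with a median of -0.15. Cnpy1 was at -0.24 ± 0.11 and En2 at -0.21 ± 0.13 (SE, edgeR adjusted p = 0.360 and 0.526). Rbm33 was at -0.09 ± 0.18 and the overlapping 9530036O11Rik at 0.10 ± 0.09 (SE, edgeR adjusted p = 0.891 and 0.708).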
